A study of Mus musculus with 15 samples.

Results

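Regulators and markers of the epithelial-mesenchymal transition were followed across a mouse lung tumor line and 4 knockout clones made from it. The members are the epithelial genes *Cdh1* and *Epcam*, the mesenchymal genes *Cdh2* and *Vim*, and the transcription factor genes *Zeb1*, *Zeb2*, *Snai1*, *Snai2*, *Twist1* and *Twist2*. They were taken by gene symbol, from a list drawn up with earlier results of these data known. All 10 have a value among the 35880 genes measured, and 8 of them passed the filter on low values.

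RNA sequencing measured the Lewis lung carcinoma line LL2/Luc2 (LL2 WT) and 4 lines derived from it by CRISPR, with 3 biologic replicates of each line and 15 samples in all. *KEAP1* KO #1, #2 and #3 received a plasmid with a guide RNA for *Keap1*, and *NRF2* KO received a guide RNA for *Nfe2l2*, the gene of NRF2. Both plasmids also carried GFP and Cas9, and single GFP-positive cells were sorted, so each knockout line is 1 clone while LL2 WT is the parental population. A difference between a clone and LL2 WT can therefore come from the knockout or from the cell that founded the clone, and with 1 *NRF2* KO clone these cannot be told apart there. All lines were grown as cultures in the same medium, with no stroma or immune cells added, and nothing was given to the cells before RNA was taken.

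During an epithelial-mesenchymal transition, cells lose the junctions and keratins of an epithelium and take up a migratory state with N-cadherin and vimentin. Factors of the SNAIL, ZEB and TWIST families drive it by binding short DNA sites called E-boxes, and the first 2 of these families are known above all as repressors of E-cadherin. KEAP1 marks the transcription factor NRF2 for degradation, so loss of KEAP1 lets NRF2 act on genes that carry antioxidant response elements.

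Values are CPM, that is, counts divided by the total of their sample, and they are not scaled for gene length, so levels are compared between samples of a gene and not between genes. The sums lay between 999412 and 999525 CPM per sample, with 17270 to 19750 genes above 0. The read depth of each sample is unknown. A level of 0.1 CPM, about 3 reads at the average depth that the methods give, served as the floor and covers counting error only. Means are given ± SD with n = 3. The limma test used log2(CPM + 0.1) of 14652 genes. A call needs an adjusted p (Benjamini-Hochberg) under 0.05 and an absolute log2 fold change (Log2FC) over 1. Log2FC on this scale understates the change of low genes. The labels were checked on *Keap1*, which averaged 23.0 CPM in LL2 WT, 22.7 CPM in *NRF2* KO and 5.53 to 11.8 CPM in the 3 *KEAP1* KO clones. *Nfe2l2* did not single out *NRF2* KO, with means of 119 CPM there, 96.4 to 123 CPM in the *KEAP1* KO clones and 186 CPM in LL2 WT. *Nqo1*, an NRF2 target, averaged 30.3 CPM in LL2 WT, 9.82 CPM in *NRF2* KO and 276 to 488 CPM in the *KEAP1* KO clones.

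Of the 4 keratins used to check the carcinoma label, *Krt8* and *Krt18* averaged at least 75.3 and 295.5 CPM in every line, while *Krt7* and *Krt19* were low, at means of 0.493 to 0.829 CPM and 0.765 to 2.85 CPM. Markers of differentiated lung epithelium were close to absent, with a sum of at most 1.18 CPM over 5 genes in any sample, and *Scgb1a1* was at 0 in all 15 samples. Of the leukocyte markers, *Ptprc* reached at most 0.192 CPM.

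The epithelial members were not detectable above the floor in any line. *Cdh1*, the gene of E-cadherin (GRCm38, chromosome 8, 106603351 to 106670246, plus strand), was above 0 in 13 of 15 samples and reached at most 0.0618 CPM, in LL2 WT replicate 3. *Epcam*, an epithelial adhesion molecule gene (chromosome 17, 87635979 to 87651129, plus strand), was above 0 in 6 of 15 samples and reached at most 0.0485 CPM. No *Cdh1* or *Epcam* value of any *KEAP1* KO or *NRF2* KO sample lay above 0.1 CPM. Both genes fell under the filter, and no fold is given for either.

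The windows before the start of transcription give the sequence context of these genes. RefSeq windows on GRCm38.p6 were searched for 6 of the 10 members, in 9 windows because *Zeb2* has several starts. The 250 bases before the start were searched on both strands. No window was at hand for *Cdh1* and *Snai2*. *Cdh2* and *Zeb1* were left out of the search, so nothing is said here about their letters. The E-box CACCTG, the form that SNAIL and ZEB factors bind, is found in 17.22% of 32851 windows of this length, and the wider E-box CANNTG, which includes it, in 66.2%. The core of the antioxidant response element, TGACNNNGC, is found in 10.16%. The 3 of these 6 members with any of these letters are shown, because they hold the binding letters of the factors under study. Each is written 5′ to 3′ on the plus strand with the match in capitals.
Epcam, chr17:87635729-87635978: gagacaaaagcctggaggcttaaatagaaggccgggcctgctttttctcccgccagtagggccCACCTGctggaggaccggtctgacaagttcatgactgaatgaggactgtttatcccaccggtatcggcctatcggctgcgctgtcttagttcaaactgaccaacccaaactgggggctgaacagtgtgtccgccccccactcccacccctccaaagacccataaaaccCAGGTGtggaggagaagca
Snai1, chr2:167537945-167538194: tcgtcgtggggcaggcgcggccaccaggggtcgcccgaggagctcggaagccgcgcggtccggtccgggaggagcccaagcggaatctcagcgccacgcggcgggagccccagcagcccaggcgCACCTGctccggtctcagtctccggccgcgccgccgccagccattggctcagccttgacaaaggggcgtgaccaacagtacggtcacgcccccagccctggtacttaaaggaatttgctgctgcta
Twist1, chr12:33957421-33957670: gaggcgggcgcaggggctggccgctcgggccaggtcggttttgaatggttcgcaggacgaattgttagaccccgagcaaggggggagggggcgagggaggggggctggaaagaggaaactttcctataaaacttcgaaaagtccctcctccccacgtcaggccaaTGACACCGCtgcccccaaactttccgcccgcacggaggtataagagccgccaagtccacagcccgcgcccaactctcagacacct
*Epcam* has 2 matches of CACCTG, whose last bases lie 182 and 14 bases before the start, the nearer one written as its reverse complement. *Snai1* has 1 such match, 121 bases before the start. *Twist1* has no E-box here and 1 match of the antioxidant response element core, 77 bases before the start. The windows of *Vim*, *Zeb2* and *Twist2* hold none of these letters. A match is a description of the letters and was not tested for binding.

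**Figure D1:**
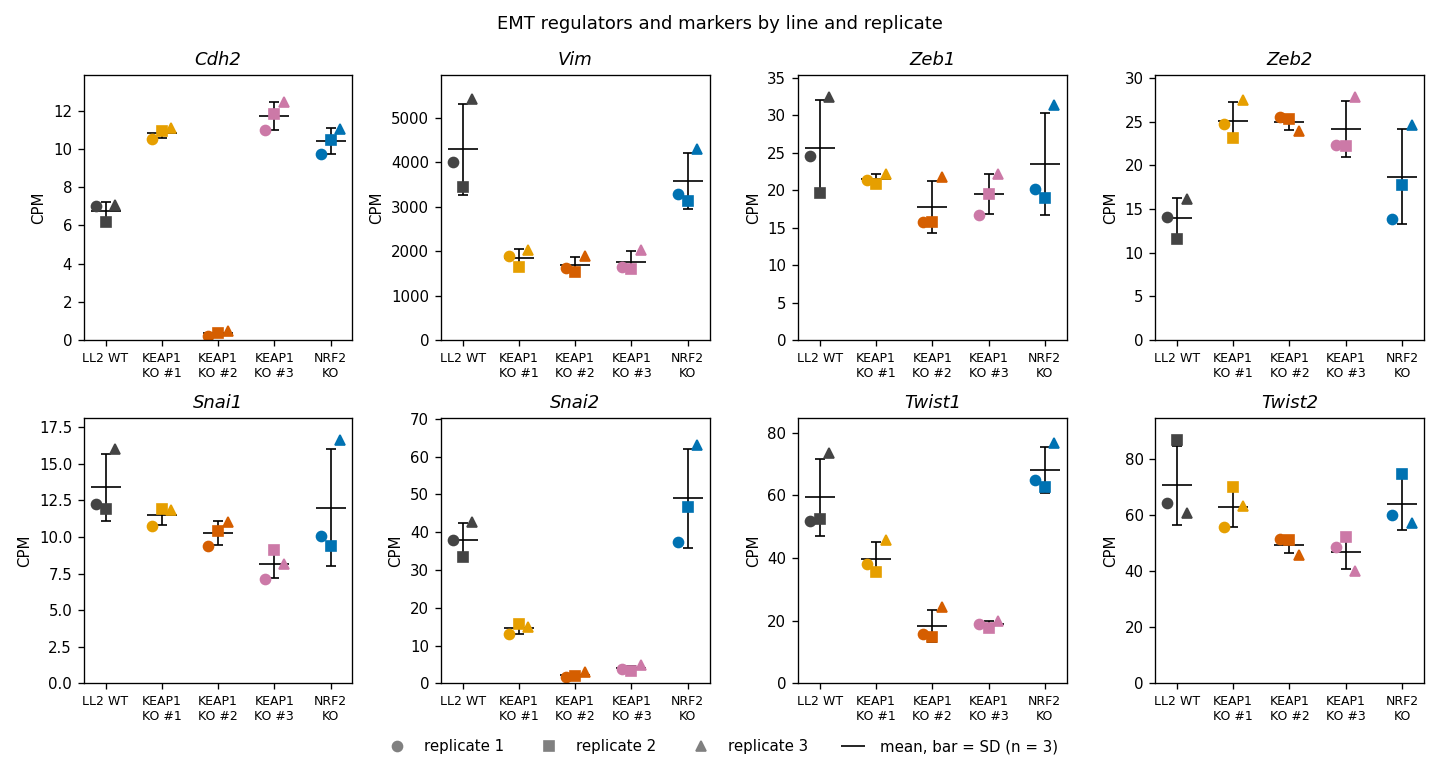
Levels of the 8 members above the floor in the 15 samples. The vertical axis of each panel is CPM from 0, the horizontal axis gives the 5 lines, points are replicates, long marks are means and bars are SD (n = 3). *Vim*, *Snai2* and *Twist1* lie lower in all 9 *KEAP1* KO samples than in the 6 others, and *Cdh2* is at 0.221 to 0.450 CPM in *KEAP1* KO #2 against 6.15 to 12.4 CPM in every other line.

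*Vim*, *Snai2* and *Twist1* separated the *KEAP1* KO clones from both other lines. Each was lower in all 9 *KEAP1* KO samples than in all 6 samples of LL2 WT and *NRF2* KO. Of the 14652 genes tested, 11.7% separated these 9 and 6 samples in either direction and 4.46% did so with the *KEAP1* KO samples lower. The comparisons of the 4 clones with LL2 WT share the 3 LL2 WT samples and are not independent of each other.

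*Vim* encodes vimentin, the intermediate filament of mesenchymal cells (chromosome 2, 13573927 to 13582826, plus strand). LL2 WT had 3994, 3447 and 5427 CPM, and *NRF2* KO had 3279, 3130 and 4289 CPM. *KEAP1* KO #1 had 1899, 1632 and 2029 CPM, #2 had 1612, 1534 and 1896 CPM, and #3 had 1644, 1592 and 2029 CPM. The 3 clones overlapped each other and lay below the other lines, at means of 1681 to 1853 CPM against 4289 ± 1023 CPM in LL2 WT. The Log2FC against LL2 WT was −1.19 for *KEAP1* KO #1 (standard error 0.18, adjusted p = 0.000437), −1.33 for #2 (adjusted p = 0.000107) and −1.27 for #3 (adjusted p = 0.000143), so *Vim* fell in all 3. With quantile normalization the value for *Vim* in *KEAP1* KO #1 was −0.98, which is not called. *Vim* was still an abundant transcript in every clone, at no less than 1534 CPM in any sample.

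*Snai2* encodes SLUG, a zinc finger repressor of the SNAIL family (chromosome 16, 14705852 to 14709385, plus strand). It stood at 37.8, 33.4 and 42.6 CPM in LL2 WT and at 37.3, 46.7 and 63.1 CPM in *NRF2* KO. It stood at 13.1, 15.8 and 14.97 CPM in *KEAP1* KO #1, at 1.67, 2.09 and 3.15 CPM in *KEAP1* KO #2, and at 3.73, 3.40 and 4.78 CPM in *KEAP1* KO #3. The samples of the 3 *KEAP1* KO clones overlapped neither with LL2 WT nor with each other, and #2 was the lowest. The mean of LL2 WT was 2.59 times that of *KEAP1* KO #1, 16.5 times that of *KEAP1* KO #2 and 9.57 times that of *KEAP1* KO #3. *Snai2* fell in all 3 clones, with a Log2FC of −1.37 for #1 (standard error 0.23, adjusted p = 0.00114), −4.02 for #2 (adjusted p = 8.76e-08) and −3.23 for #3 (adjusted p = 5.50e-07).

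*Twist1* encodes a basic helix-loop-helix factor (chromosome 12, 33957671 to 33959829, plus strand), and its window with the antioxidant response element core is printed above. LL2 WT gave 52.0, 52.5 and 73.6 CPM, and *NRF2* KO gave 65.0, 62.7 and 76.7 CPM. *KEAP1* KO #1 gave 38.0, 35.5 and 45.8 CPM, #2 gave 15.8, 14.8 and 24.2 CPM, and #3 gave 19.02, 17.7 and 19.98 CPM. *KEAP1* KO #2 and #3 overlapped, and #1 lay between them and LL2 WT with no overlap on either side. *Twist1* fell in *KEAP1* KO #2 (Log2FC −1.71, standard error 0.19, adjusted p = 2.20e-05) and in #3 (−1.63, adjusted p = 2.93e-05). For *KEAP1* KO #1 the Log2FC was −0.56 (adjusted p = 0.0433), under the fold needed for a call.

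**Figure D2:**
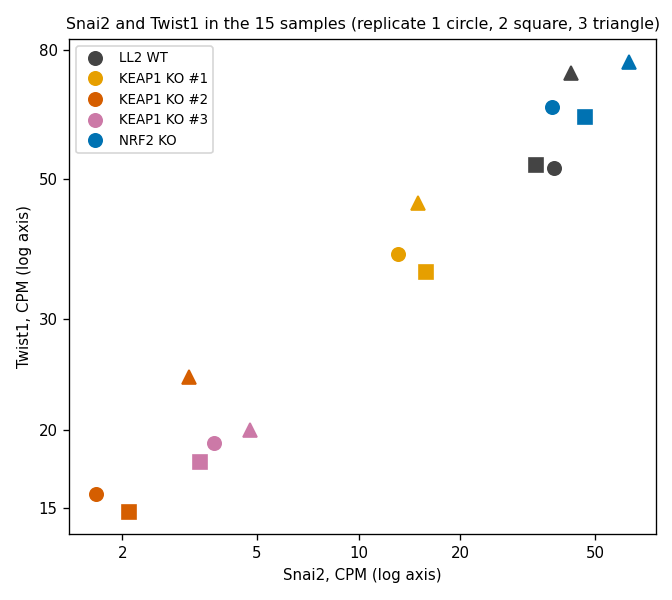
*Snai2* against *Twist1* in the 15 samples, both axes in CPM on log scales, colored by line with a shape for each replicate. *KEAP1* KO #2 and #3 sit at the lower left, *KEAP1* KO #1 in the middle and LL2 WT and *NRF2* KO at the upper right, with r = 0.98 over the samples on log2(CPM + 0.1).

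The plot of *Snai2* against *Twist1* shows the same order of lines for both genes, with Pearson's r = 0.98 over 15 samples. The value for *Vim* was r = 0.86 with *Snai2* and 0.87 with *Twist1*. These are descriptions over 5 lines whose replicates share a clone, so the points are not independent.

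The summed level of 6 fibroblast markers was 317.5 to 583 CPM in LL2 WT, 182 to 421 CPM in *NRF2* KO and 2.54 to 24.9 CPM in the 9 *KEAP1* KO samples. *Col3a1*, a fibrillar collagen gene, made up most of the sum in LL2 WT (436 ± 127 CPM), *NRF2* KO (318 ± 124 CPM) and *KEAP1* KO #1 (12.4 ± 5.38 CPM). In *KEAP1* KO #2 and #3 it averaged 4.04 and 0.325 CPM, where the receptor gene *Pdgfra* averaged 6.61 and 2.90 CPM. Not all 6 markers followed *Vim*, *Snai2* and *Twist1*, as *Pdgfra* averaged 5.77 CPM in *NRF2* KO and 6.54 CPM in *KEAP1* KO #1, and *Dcn* 0.351 CPM in LL2 WT, 0.141 CPM in *NRF2* KO and 0.393 CPM in *KEAP1* KO #3. The defining collagen gene *Col1a1* reached at most 0.829 CPM and *Lum* at most 0.0926 CPM in any sample, with 5 of the 6 markers at a mean above the floor in LL2 WT. Among leukocyte markers, *Cd68* had a mean of 2.85 CPM for LL2 WT and of 22.0 CPM for *KEAP1* KO #3, and the leukocyte sums ran from 1.84 to 36.8 CPM over the samples. Endothelial markers summed to 2.48 to 7.49 CPM, mostly *Pecam1*. The part of other cells in the changes of *Vim*, *Snai2* and *Twist1* was not tested. Each knockout line, *NRF2* KO included, grew from 1 sorted cell in culture, with no stroma or immune cells added. Within such a culture, a smaller share of cells with these transcripts cannot be told apart from less RNA per cell.

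*Cdh2* gave the largest difference between the *KEAP1* KO clones among the members. It encodes N-cadherin, the adhesion molecule that replaces E-cadherin in the transition (chromosome 18, 16588877 to 16809246, minus strand). LL2 WT had 6.99, 6.15 and 7.04 CPM, *KEAP1* KO #1 had 10.5, 10.9 and 11.1 CPM, and *KEAP1* KO #3 had 10.98, 11.8 and 12.4 CPM. The levels of *KEAP1* KO #2 were 0.221, 0.383 and 0.450 CPM, all above the floor but below every sample of every other line. The mean of LL2 WT was 19.2 times, that of *KEAP1* KO #1 was 30.9 times and that of *KEAP1* KO #3 was 33.4 times that of *KEAP1* KO #2.

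The Log2FC of *Cdh2* in *KEAP1* KO #2 was −3.95 (standard error 0.18, adjusted p = 7.61e-09) against LL2 WT, a fall. All samples of the 2 other *KEAP1* KO clones lay above LL2 WT, with a Log2FC of 0.68 (adjusted p = 0.0142) and 0.80 (adjusted p = 0.00415), under the fold needed for a call. *NRF2* KO stood at 9.73, 10.5 and 11.04 CPM, also above every LL2 WT sample (Log2FC 0.62, adjusted p = 0.174). Only 2 tested genes start within 2 Mb of *Cdh2*, and 0 of them were called in *KEAP1* KO #2 by limma (this window was chosen after the values were seen). *Kctd1* had a Log2FC of −0.01 (adjusted p = 0.974) and *Gm10036* of −0.57 (adjusted p = 0.00121), and the latter was −0.92 in *KEAP1* KO #3. With so few neighbors, nothing is read from them about the cause of the low *Cdh2* level, which was not tested.

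*Zeb2*, a zinc finger and homeobox repressor (chromosome 2, 44983632 to 45117395, minus strand), was the member that stood higher in all 3 *KEAP1* KO clones. LL2 WT measured 14.1, 11.6 and 16.2 CPM. *KEAP1* KO #1 measured 24.7, 23.2 and 27.4 CPM, #2 measured 25.5, 25.4 and 23.9 CPM, and #3 measured 22.3, 22.2 and 27.8 CPM. No *KEAP1* KO sample overlapped with LL2 WT, and the 3 clones overlapped with each other. The Log2FC was 0.85, 0.84 and 0.79 (adjusted p = 0.00545, 0.00395 and 0.00582), under the fold needed for a call. *NRF2* KO measured 13.8, 17.7 and 24.6 CPM, a range that overlapped with LL2 WT and with the *KEAP1* KO clones (Log2FC 0.39, adjusted p = 0.457). *Zeb2* was thus opposite in sign to *Vim* in the 3 *KEAP1* KO clones, and its r with *Vim* was −0.67 over the 15 samples.

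*Zeb1*, the paralog of *Zeb2* (chromosome 18, 5591860 to 5775467, plus strand), was not called in any line. LL2 WT measured 24.6, 19.6 and 32.5 CPM and *NRF2* KO 20.1, 18.97 and 31.4 CPM, and the *KEAP1* KO samples lay between 15.7 and 22.2 CPM. All 4 clones overlapped with LL2 WT. The Log2FC ran from −0.22 to −0.51 in the *KEAP1* KO clones, the lowest adjusted p was 0.0860 in *KEAP1* KO #2, and its 95% interval there was −0.98 to −0.05.

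*Snai1* encodes SNAIL, the founding repressor of its family (chromosome 2, 167538195 to 167542814, plus strand). LL2 WT gave 12.23, 11.9 and 16.0 CPM, and *NRF2* KO gave 10.06, 9.38 and 16.6 CPM. *KEAP1* KO #1 gave 10.8, 11.9 and 11.8 CPM, *KEAP1* KO #2 gave 9.41, 10.4 and 11.03 CPM, and *KEAP1* KO #3 gave 7.17, 9.13 and 8.18 CPM. Clones #2 and #3 lay below every LL2 WT sample, and #1 overlapped. The Log2FC in *KEAP1* KO #3 was −0.70 (standard error 0.20, adjusted p = 0.0160), and in *KEAP1* KO #2 it was −0.37 (adjusted p = 0.174), neither of which is called. *Snai1* and *Snai2* thus had values of one sign and unlike size, with means in *KEAP1* KO #2 of 0.768 and 0.0607 times those of LL2 WT.

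*Twist2*, a second TWIST factor gene (chromosome 1, 91801461 to 91848028, plus strand), was not called in any line. LL2 WT measured 64.3, 86.7 and 60.6 CPM, and *NRF2* KO measured 60.0, 74.4 and 57.2 CPM. *KEAP1* KO #1 measured 55.6, 69.8 and 63.1 CPM and overlapped with LL2 WT. *KEAP1* KO #2 at 51.4, 51.0 and 45.9 CPM and *KEAP1* KO #3 at 48.7, 52.1 and 39.9 CPM lay below it. Their Log2FC of −0.50 (adjusted p = 0.0256) and −0.58 (adjusted p = 0.0118) stayed under the fold needed for a call. In the gene models of GENCODE M21, 46.0% of the 31-base stretches of *Twist2* transcripts also occur, on either strand, in transcripts of the gene *Gm29100*. Reads of that gene could therefore count for *Twist2*. For the other members the share with any other gene was at most 3.31%, and it was 0 for *Snai1* and *Twist1*.

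**Figure D3:**
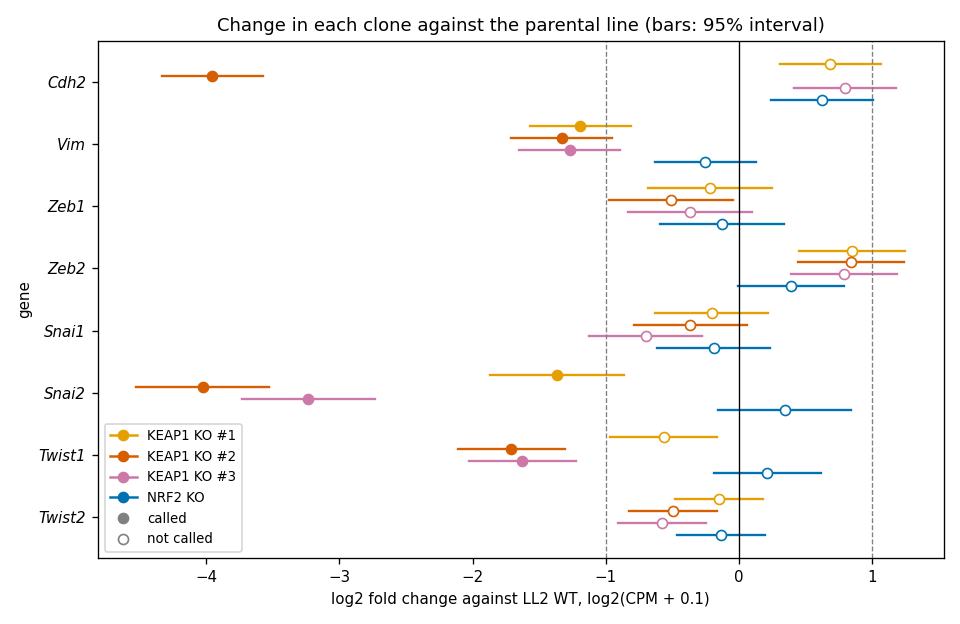
Log2FC of the 8 tested members in each clone against LL2 WT. The horizontal axis is the difference of mean log2(CPM + 0.1), points are the 4 clones, bars are 95% intervals, filled points are called and dashed lines mark the fold threshold of 1. *Snai2* and *Vim* are called in all 3 *KEAP1* KO clones, *Twist1* in #2 and #3, *Cdh2* in #2, and no member is called in *NRF2* KO.

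Counted over the 8 tested members, 2 were called in *KEAP1* KO #1, where 8.54% of all tested genes were called, 4 in *KEAP1* KO #2, where 13.7% were, and 3 in *KEAP1* KO #3, where 13.4% were. Every one of these calls was a fall, against 3.99%, 7.75% and 7.34% of all tested genes called lower. By samples that did not overlap with LL2 WT, the members numbered 5 in *KEAP1* KO #1 (37.0% of all tested genes), 7 in *KEAP1* KO #2 (42.0%) and 7 in *KEAP1* KO #3 (40.0%). The median Log2FC of all tested genes was 0.11, 0.03 and 0.02 in this order, and rescaling by the median ratio brought the first to 0.01.

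In *NRF2* KO, limma called 0 of the 8 tested members and 0.464% of all tested genes. By limma 1 member, *Cdh2*, had an unadjusted p under 0.05, and the share of all tested genes under that threshold was not counted. *Cdh2* was also the only member whose *NRF2* KO samples did not overlap with LL2 WT, against 13.2% of all tested genes. The Log2FC of *Snai2* was 0.34 (95% interval −0.16 to 0.84) and that of *Twist1* was 0.21 (−0.19 to 0.61). For *Vim* it was −0.25 (−0.63 to 0.13). A change of 1 log2 unit lies outside each of these 3 intervals.

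The *KEAP1* KO clones also differed from one another. Against *KEAP1* KO #1, 3 members were lower in *KEAP1* KO #2, where 4.58% of all tested genes were called. These were *Cdh2* (−4.64, adjusted p = 1.80e-08), *Snai2* (−2.66, adjusted p = 2.30e-05) and *Twist1* (−1.14, adjusted p = 0.00178). In *KEAP1* KO #3 against #1 the members called were 2, *Snai2* (−1.87, adjusted p = 0.000267) and *Twist1* (−1.06, adjusted p = 0.00279), where 4.63% of all tested genes were called. The *Twist1* value of *KEAP1* KO #3 against #1 was −0.97 after rescaling by the median ratio, −0.996 after quantile normalization and −0.96 without *KEAP1* KO #1 replicate 3, and was then not called.

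Between *KEAP1* KO #3 and #2, 1 member was called, *Cdh2* (4.75, adjusted p = 1.33e-08), where 0.485% of all tested genes were called. The Log2FC of *Snai2* in this comparison was 0.79 (adjusted p = 0.218), which is not called. For *Vim* and *Zeb2* the differences between the 3 clones ran from −0.14 to 0.06, with 95% intervals that stayed within −0.52 and 0.44. In *Snai2* and *Twist1*, *KEAP1* KO #1 lay nearer to LL2 WT than #2 and #3 did.

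Replicate 3 gave the highest value of its line in all 5 lines for *Cdh2*, *Vim*, *Zeb1* and *Twist1*, in 4 lines for *Zeb2* and *Snai2*, in 3 for *Snai1* and in 0 for *Twist2*. Over all tested genes, replicate 3 was the highest in 41.6% to 56.0% of genes of a line. The share of genes with replicate 3 highest in all 5 lines at once was not counted. Leaving out any 1 sample ended no call of a member against LL2 WT.

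For each tested member the 2 genes with the most similar profile over the 15 samples were sought among 11675 genes with a mean of at least 1 CPM, by Pearson's r on log2(CPM + 0.1). The profile of *Vim* was nearest to *Asph* (r = 0.991) and to *Tgfbr3* (0.984), the gene of betaglycan, a co-receptor of TGF-beta. *Asph* averaged 99.7 CPM in LL2 WT, 32.8 to 38.0 CPM in the *KEAP1* KO clones and 80.5 CPM in *NRF2* KO. *Snai2* was nearest to *Hdgfl3* (0.986) and to *Dkk2* (0.982), a gene of a secreted modulator of WNT signaling whose mean was 91.6 CPM for LL2 WT, 72.3 CPM for *NRF2* KO and 9.62, 0.313 and 0.660 CPM for *KEAP1* KO #1 to #3.

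*Twist1* was nearest to *Dpysl3* (0.988) and *Clec1a* (0.986). *Dpysl3* had a mean of 80.8 CPM for LL2 WT, 90.4 CPM for *NRF2* KO and 47.7, 9.98 and 11.7 CPM for *KEAP1* KO #1 to #3. *Cdh2* was nearest to *Tmem185b* (0.972), which averaged 0.0145 CPM in *KEAP1* KO #2 and 1.82 to 2.62 CPM in the 4 other lines. The second was *Gm48836* (0.936), which was at 0 in *KEAP1* KO #2 and averaged 4.58 to 9.28 CPM in the others. These 2 genes share with *Cdh2* a low level in 1 clone, which weighs heavily in r.

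*Zeb2* was nearest to *Rreb1* (0.951) and *Gse1* (0.949), *Zeb1* to *Dennd4b* (0.974) and *Nbea* (0.965), and *Snai1* to *Fbxl2* (0.922) and *Tshz1* (0.917). *Twist2* had the least similar neighbors, *Nudt2* (0.866) and *Entpd6* (0.865).

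Other genes of the program were read from 5 lists that do not hold the members. Of 35 mesenchymal genes 30 were tested. In *KEAP1* KO #1, 1 rose, 5 fell and 24 were not called, with a median Log2FC of −0.36. In *KEAP1* KO #2, 2 rose, 12 fell and 16 were not called, with a median of −0.76, and in *KEAP1* KO #3, 1 rose, 11 fell and 18 were not called, with a median of −0.79. The shares called, 20%, 46.7% and 40%, stood beside 8.54%, 13.7% and 13.4% of all tested genes, of which 4.55%, 5.94% and 6.09% were called higher.

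The mesenchymal gene with the largest fall in each *KEAP1* KO clone was a gene of the extracellular matrix. *Tnc*, the gene of tenascin C, went from 3.45 ± 3.21 CPM (LL2 WT) to 0.131 ± 0.1002 CPM for *KEAP1* KO #1 (Log2FC −3.60, adjusted p = 0.00125). *Thbs1*, the gene of thrombospondin 1, went from 21.5 ± 13.6 CPM (LL2 WT) to 0.191 ± 0.112 CPM for *KEAP1* KO #2 (−6.11, adjusted p = 7.33e-06), but stood at 35.3 ± 15.1 CPM in *KEAP1* KO #1 and was not called there (adjusted p = 0.367). *Fbn1*, the gene of fibrillin 1, went from 19.1 ± 3.29 CPM (LL2 WT) to 0.367 CPM for *KEAP1* KO #3 (−5.35, adjusted p = 5.26e-09). Means in *NRF2* KO were also below LL2 WT, at 1.25 CPM for *Tnc* (Log2FC −1.18), 5.13 CPM for *Thbs1* (−2.01) and 9.87 CPM for *Fbn1* (−0.93). None of these was called there by limma (lowest adjusted p = 0.126). *Fn1*, the gene of fibronectin, was picked after its values were seen and had a mean of 236 ± 125 CPM for LL2 WT. It fell to 19.9 CPM in clone #2 and 22.9 CPM in clone #3 (Log2FC −3.53 and −3.51), while *KEAP1* KO #1 at 92.1 CPM was not called (adjusted p = 0.125). *NRF2* KO at 164 CPM was not called either (adjusted p = 0.801). Not all large falls were of matrix genes. *Ncam1*, a cell adhesion molecule gene also picked after its values were seen, fell from 6.77 CPM to 0.757 CPM in clone #2 and 0.328 CPM in clone #3 (Log2FC −2.85 and −3.85).

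Rises among the mesenchymal genes were few. *Pdgfrb*, a growth factor receptor gene, rose in *KEAP1* KO #1 (4.21 ± 2.35 against 0.697 ± 0.110 CPM, Log2FC 2.28, adjusted p = 0.00153) and fell to means under the floor in *KEAP1* KO #2 (0.0139 CPM) and #3 (0.0347 CPM). *Tagln*, a smooth muscle actin-binding protein gene, rose from 1.09 CPM to 2.75 CPM for *KEAP1* KO #2 (1.54, adjusted p = 0.0203) and to 2.55 CPM for #3 (1.44, adjusted p = 0.0278).

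**Figure D4:**
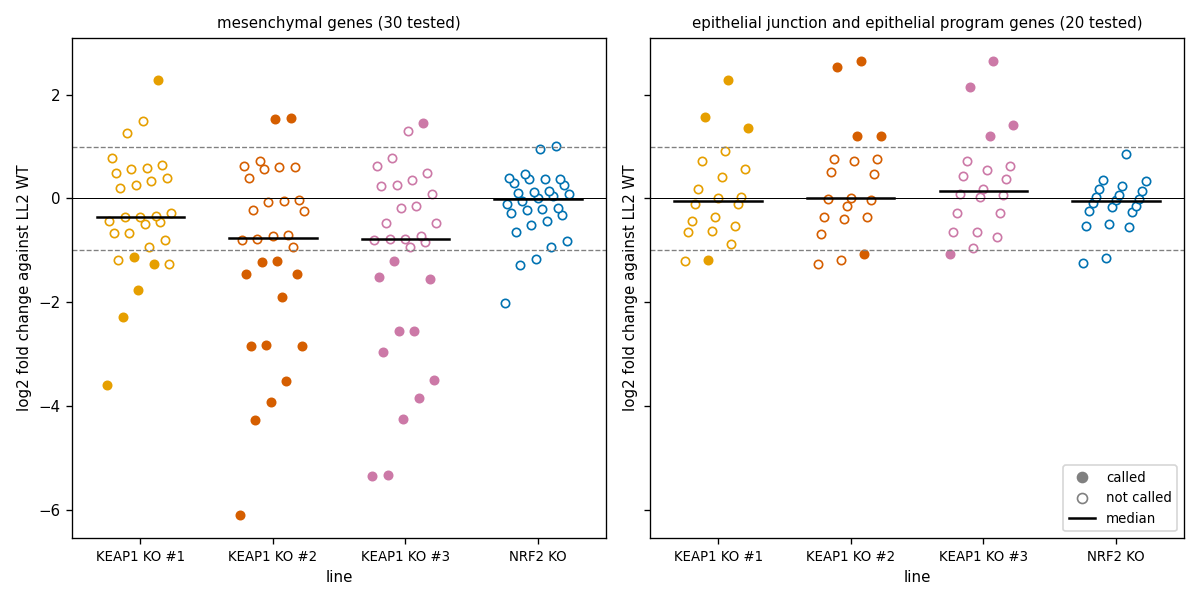
Log2FC against LL2 WT of each tested gene of the mesenchymal list (left, 30 genes) and of the epithelial list (right, 20 genes) in the 4 clones. The vertical axis is log2 of the fold on CPM + 0.1, filled points are called, black lines are medians and dashed lines mark a Log2FC of 1 and −1. The mesenchymal medians are −0.36, −0.76 and −0.79 in *KEAP1* KO #1 to #3 and −0.01 in *NRF2* KO, while the epithelial medians lie between −0.06 and 0.13.

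Of 40 genes of epithelial junctions and the epithelial program only 20 were tested, the others being under the filter like *Cdh1* and *Epcam*. In *KEAP1* KO #1, 3 rose and 1 fell, and in *KEAP1* KO #2 and #3, 4 rose and 1 fell, with medians of −0.06, −0.0019 and 0.13. The shares called were 20%, 25% and 25%, beside 8.54%, 13.7% and 13.4% over all tested genes. The plot of the 2 lists shows these few rises above a median near 0. *Ppl*, the gene of periplakin, a plakin of junctions and the cornified envelope, rose from 1.08 CPM (LL2 WT) to 5.26, 7.01 and 7.14 CPM in the 3 clones (Log2FC 2.28, 2.65 and 2.65, highest adjusted p = 0.000613). *Grhl2*, a factor of the epithelial program that was picked after its values were seen, stood at 0.331 CPM in LL2 WT and rose to 0.992, 2.36 and 1.78 CPM. The falls were *Ocln*, the gene of occludin, in *KEAP1* KO #1 (−1.18) and *Tjp1*, the gene of the tight junction protein ZO-1, in *KEAP1* KO #2 and #3 (both −1.08).

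Of 38 other regulators linked to the transition, 37 were found by symbol and 33 tested, and 3 rose in each *KEAP1* KO clone while 1, 3 and 4 fell. These are 12.12%, 18.2% and 21.2% of the tested regulators, against a background of 8.54%, 13.7% and 13.4%. *Foxq1*, a forkhead factor gene, rose from 0.340 CPM (LL2 WT) to 4.83, 5.67 and 5.67 CPM (Log2FC 3.60, 3.84 and 3.84, highest adjusted p = 5.61e-05). *Prrx1*, a homeobox factor of mesenchyme, fell in *KEAP1* KO #1 from 111 ± 39.3 to 36.0 ± 8.66 CPM (−1.58, adjusted p = 0.00114). *Tcf4*, the gene of an E-protein that pairs with helix-loop-helix factors such as TWIST, fell from 118 CPM to 29.4 CPM for *KEAP1* KO #2 (−1.98, adjusted p = 0.000490) and to 28.3 CPM for #3 (−2.04, adjusted p = 0.000379).

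Of 24 genes of the TGF-beta pathway, a main inducer of the transition, 22 were tested, and 2, 0 and 0 rose and 1, 4 and 3 fell in *KEAP1* KO #1 to #3. The shares of 13.6%, 18.2% and 13.6% stood beside those of all tested genes (8.54%, 13.7% and 13.4%). The ligand gene *Tgfb2* rose in *KEAP1* KO #1 from 1.03 to 2.71 CPM (Log2FC 1.44, adjusted p = 0.0259) and fell in *KEAP1* KO #2 to 0.346 CPM (−1.19, adjusted p = 0.0456). The co-receptor gene *Tgfbr3*, named above beside *Vim*, fell from 53.9 CPM to 16.1, 14.8 and 14.7 CPM (−1.71, −1.84 and −1.86, highest adjusted p = 0.00379).

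Of 24 other cadherin, catenin and nectin genes 15 were tested, with 0, 2 and 3 rises and 2, 4 and 3 falls. In this list 13.3%, 40% and 40% were called, where all tested genes gave 8.54%, 13.7% and 13.4%. *Jup*, the gene of plakoglobin, fell from 8.44 CPM to 1.42 CPM in *KEAP1* KO #1 (Log2FC −2.56, adjusted p = 0.00368), 0.995 CPM in #2 (−3.09, adjusted p = 0.000678) and 0.526 CPM in #3 (−3.88, adjusted p = 0.000113). *Cdh13*, the gene of T-cadherin, fell from 1.94 CPM to 0.429 CPM in *KEAP1* KO #1 (−1.97) and to 0.0430 CPM in #2 (−3.83), and rose to 5.97 CPM in #3 (1.59, adjusted p = 0.00754). *Cdh5*, the gene of VE-cadherin, was under the floor in all LL2 WT samples and called higher in *KEAP1* KO #2 and #3, at means of 0.819 and 1.25 CPM. In *KEAP1* KO #2, *Cdh2* was thus low but above the floor, and *Cdh13* had a mean under it. Both stood above LL2 WT in *KEAP1* KO #3, while *Cdh1* stayed under the floor in all lines.

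In *NRF2* KO limma called 0 genes of each of the 5 lists. The genes with an unadjusted p under 0.05 numbered 7 of 30 mesenchymal, 2 of 20 epithelial, 5 of 33 regulator, 1 of 22 TGF-beta and 2 of 15 cadherin, catenin and nectin genes. The share of all tested genes under this unadjusted threshold was not counted, so these numbers are not read as a result.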

How the data were processed

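Bulk RNA-seq of 5 LL2 lines (3 biologic replicates each, 15 samples) was used, grouped by the genotype and title in the labels. The authors deposited CPM for each gene symbol. Per the methods and the labels, libraries were made with a KAPA mRNA kit and reads of bcl2fastq (1.9.0) were pseudo-aligned with kallisto 0.48.0 to GRCm38.p6 transcripts and summed to genes, while the submitters' processing notes list GRCm39. Read counts could not be recovered from the CPM, so no count test was run.

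Gene positions here are those of GENCODE M21 on GRCm38. An entry without a gene symbol (0.0214% to 0.0491% of CPM) was left out, and 0 sample columns were unused. Genes whose CPM summed to 3 or more over the samples (14652 of 35880) were tested on log2(CPM + 0.1) with limma 3.58.1 in R 4.3.3, with a mean for each line over all 15 samples, a trended empirical Bayes prior and Benjamini-Hochberg adjustment. Descriptions and plots were made with pandas 2.3.3, numpy 2.4.6 and matplotlib 3.10.9 in Python 3.11.15. The fit was also run on simulated data with independent noise in each sample. That run held no deviations shared between lines by replicate number, so it does not cover them.

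The members and the gene lists were chosen with earlier results of these data known. Beside the members, the text names the called gene with the largest rise and the largest fall of each list in each comparison, the 2 most similar genes of each tested member, the genes checking the labels and the cell type markers, and other genes only where stated. Adjusted p-values measure the spread between the replicates of a line and not between clones. The alternatives were pseudocounts of 1, 0.5 and 0.02 CPM, no filter, a mean of at least 1 CPM, rescaling by the median ratio, quantile normalization, a replicate block, a fit of only the lines compared and leaving out each sample. Replicate numbers pair samples by the check on 11676 genes (every same-number correlation of deviations over 0.1) only for *KEAP1* KO #2 with #3 and *KEAP1* KO #3 with *NRF2* KO. In the other pairs of lines only replicate 1 lay under 0.1, and replicate 3 gave at least 0.422 in every pair. The main fit had no replicate term. With the replicate block, calls over all tested genes went from 1251 to 1597 in *KEAP1* KO #1 and from 68 to 179 in *NRF2* KO. With the replicate block, *Cdh2* in *KEAP1* KO #3 against #2 kept its call.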

Additional observations from a re-analysis of the deposited data

Results flagged for a closer look

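The response of some members differed between the 3 *KEAP1* KO clones, by limma tests of one clone against another. *Cdh2* had a Log2FC of −4.64 in *KEAP1* KO #2 against #1 and of 4.75 in *KEAP1* KO #3 against #2, with adjusted p-values of 1.80e-08 and 1.33e-08. *Snai2* had a Log2FC of −2.66 in *KEAP1* KO #2 against #1 and of −1.87 in *KEAP1* KO #3 against #1. *Twist1* had a Log2FC of −1.14 in *KEAP1* KO #2 against #1 and of −1.06 in *KEAP1* KO #3 against #1, the last of which was not called under 2 other scalings or without *KEAP1* KO #1 replicate 3. Each clone descends from 1 cell, so a difference between clones cannot be told apart from a difference between founder cells. The clones also differed in *Keap1* itself, with means of 11.8 CPM in #1, 5.53 CPM in #2 and 5.58 CPM in #3. The part of this in the differences between clones was not tested.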

How the results depend on the processing

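Most values kept their direction and call: over the Log2FC values of members under the alternatives, 874 did so, 18 changed sign and 4 lost the call. Under quantile normalization *Vim* in *KEAP1* KO #1 was −0.98 (1 member called there), and *Twist1* in *KEAP1* KO #3 against #1 was −0.996, or −0.97 by the median ratio and −0.96 to −1.14 with a sample left out (1 to 2 of all members called there, and 1 under either scaling). Sign changes concerned uncalled values near 0. By the median ratio and quantile normalization *Zeb2* was 0.0795 and 0.0616 in *KEAP1* KO #2 against #1 and 0.0326 and 0.0095 in *KEAP1* KO #3 against #1, and *Vim* was 0.0143 by the median ratio in the latter.

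Leaving out 1 sample in turn gave these ranges. *Twist2* ran from −0.255 to 0.0041 in the first *KEAP1* KO clone, from −0.249 to 0.0242 in *NRF2* KO and from −0.162 to 0.0291 in *KEAP1* KO #3 against #2. *Zeb1* in *NRF2* KO ran from −0.355 to 0.0592. *Zeb2* ran from −0.0643 to 0.0576 in *KEAP1* KO #2 against #1, from −0.17 to 0.0034 in #3 against #1 and from −0.16 to 0.0006 in #3 against #2. In #3 against #2, *Twist1* ran from −0.0527 to 0.301 and *Vim* from −0.0488 to 0.15.

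The lists depended more on the settings. Of the TGF-beta pathway, 1 gene was called in *KEAP1* KO #1 with a pseudocount of 1 CPM or only the lines compared, and 2 in *KEAP1* KO #2 with a pseudocount of 1 or 0.5 CPM, a mean of at least 1 CPM or only the lines compared. Of the epithelial junction and epithelial program genes, 8 were called in *KEAP1* KO #2 with no filter, which tests more genes, and 3 to 5 with a sample left out. Of the cadherins, catenins and nectins, 3 were called in *KEAP1* KO #2 with only the lines compared. With the replicate block, the mesenchymal genes called numbered 10 for *KEAP1* KO #1 and 1 for *NRF2* KO, where a term for replicate 3, chosen after seeing the data, gave 2 and leaving out a sample 0 to 1. The block changed no call of a member. The cause of these changes was not tested. Depth is unknown per sample, which limits *Cdh1* and *Epcam* to a statement about the floor.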
